A study of Ovis aries with 49 samples.

Results

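The genes described here make or regulate the machinery that splices and handles RNA. They are the autosomal genes in the deposited fetal allele lists whose symbol starts with RBM, HNRNP, SRSF, SNRP, SF3, PRPF or DDX, together with CLK1, CLK2, CLK3, CLK4, SON, SAFB and PRRC2A. This rule found 71 of the 6885 autosomal genes listed, and 4 further symbols of the same families on the X chromosome were left out. The CLK kinases with SON, SAFB and PRRC2A make up 7 of the 71 genes. The others are 3 SR proteins, 8 hnRNP proteins, 19 RBM proteins, 16 snRNP and spliceosome proteins and 18 DEAD-box helicases.

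Most of these proteins act before an mRNA leaves the nucleus. The spliceosome, built from snRNPs and their associated proteins, removes introns, and SR and hnRNP proteins bind the pre-mRNA and steer which splice sites it uses. CLK kinases phosphorylate SR proteins, nuclear speckles store them, and DEAD-box helicases remodel RNA in splicing, export and ribosome assembly. SNRPN, a gene of these families long known to be imprinted and paternally expressed, had no polymorphism here at which the parents could be told apart.

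The libraries came from sheep fetuses of Western white-faced ewes and 4 Dorset rams. From gestation day 30 the ewes received 100% (control, Con), 140% (overfed, Over) or 60% (restricted, Res) of the energy recommended by the National Research Council. Tissue was sampled at day 135 from 7 Con, 4 Over and 4 Res fetuses. Brain, kidney and lung of each gave 45 RNA libraries, and the blood DNA of the rams gave the paternal genotypes. The descriptions place the 15 fetuses in 12 ewes, 4 per diet, with 3 Con fetuses under 1 ewe tag and 2 under another. The protocol text instead counts 3 sets of twins among the Con fetuses, which these tags do not give, and the ewe units of the diet tests follow the tags. The rams fathered 2, 1, 5 and 7 of the fetuses.

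Each value is a number of reads with the paternal or the maternal base at a single-nucleotide polymorphism (SNP) where the ram was homozygous and the fetus heterozygous, which is called informative below. A library listed 272 to 1420 such SNPs in brain, 172 to 1276 in kidney and 709 to 1993 in lung, with 6530.5 to 194732.5 reads in all. Every entry had at least 20.5 reads and at least 70.02% of them on one allele, so SNPs with balanced reads are not in the lists. A parental bias called below therefore says that the listed SNPs of a gene lay on the same side in the fetuses. It does not say that the gene as a whole was unbalanced. Brain markers (4 of 12 listed in brain libraries, 2 in kidney and 2 in lung) and kidney markers (7 of 11 in kidney, 1 in brain, 3 in lung) were listed mostly in their own tissue, whereas of 10 lung markers 1 was listed in lung (SLC34A2), 1 in brain (ABCA3) and none in kidney. The defining surfactant genes SFTPA1, SFTPB, SFTPC and SFTPD had no listed SNP in lung, and no haemoglobin or other blood marker was listed in any tissue.

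The 71 genes held 957 of the 39974 entries, at 200 SNPs, with 8 to 28 of these SNPs in a brain library, 6 to 34 in kidney and 14 to 33 in lung. A member entry had a median of 49.0 reads, against 32.0 over all entries. The entries were unevenly spread, since 10 genes held 58.8% of them and 17 genes had a single entry. A further 55 symbols of these families had informative SNPs but no listed one. Among the informative pairs of SNP and fetus, 6.88% were listed in brain, 8.04% in kidney and 9.36% in lung for the members, compared with 2.05%, 2.44% and 3.41% for the other autosomal genes.

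With the moderated test of limma on the log ratio of paternal to maternal reads, 21 of 23 members tested were called biased in brain, where 65.5% of all genes were. Of these members 8 were paternal (20.9% of all genes were called paternal) and 13 maternal (44.6% of all genes). In kidney 20 of 22 were called, against 66% of all genes, 6 on the paternal side (22% of all genes) and 14 on the maternal (44.0%). Lung had 23 of 27 called, against 60.9% of all genes, 9 paternal (21.7% of all genes) and 14 maternal (39.2%). The median log ratio (natural log) of the tested members was -1.08 in brain, -0.975 in kidney and -0.763 in lung, beside -0.581, -0.546 and -0.421 for all genes tested. Together 29 members were called in at least one tissue, 11 paternal and 18 maternal, none of them on different sides in different tissues, and 15 were called in all 3 tissues. Of the 64 calls, 59 had every fetus on the same side. These were all the tested pairs of member and tissue with a shared side, since none of the 8 uncalled pairs had one. Balanced SNPs are not in the lists, so a shared side and a call went together, and the 59 are not separate evidence. The counts of 29, 15 and 59 have no counterpart over all genes here. Without the SNPs that were informative in 10 or more fetuses, brain had 7 calls among 8 members tested, kidney 6 among 8 and lung 7 among 11, where 56.7%, 58.9% and 53.1% of all genes were called. Of the calls made with all SNPs, 13, 13 and 16 could then not be tested, and DDX19A was tested in each tissue and lost its call (adjusted p = 0.478, 0.402 and 0.343). Of the 957 entries, 431 lie at 20 SNPs, in 13 members, where all 15 fetuses were heterozygous and every father had the reference base. At these SNPs the parent and the base cannot be told apart, and the alignment and genotyping of the positions were not examined here. They hold all entries of CLK1, HNRNPA2B1, HNRNPU, SRSF4 and PRPF40B and most of those of CLK2 and RBM5. HNRNPH1, HNRNPM, PRRC2A, RBM23, SAFB and SON also have entries at such SNPs.

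**Figure D1:**
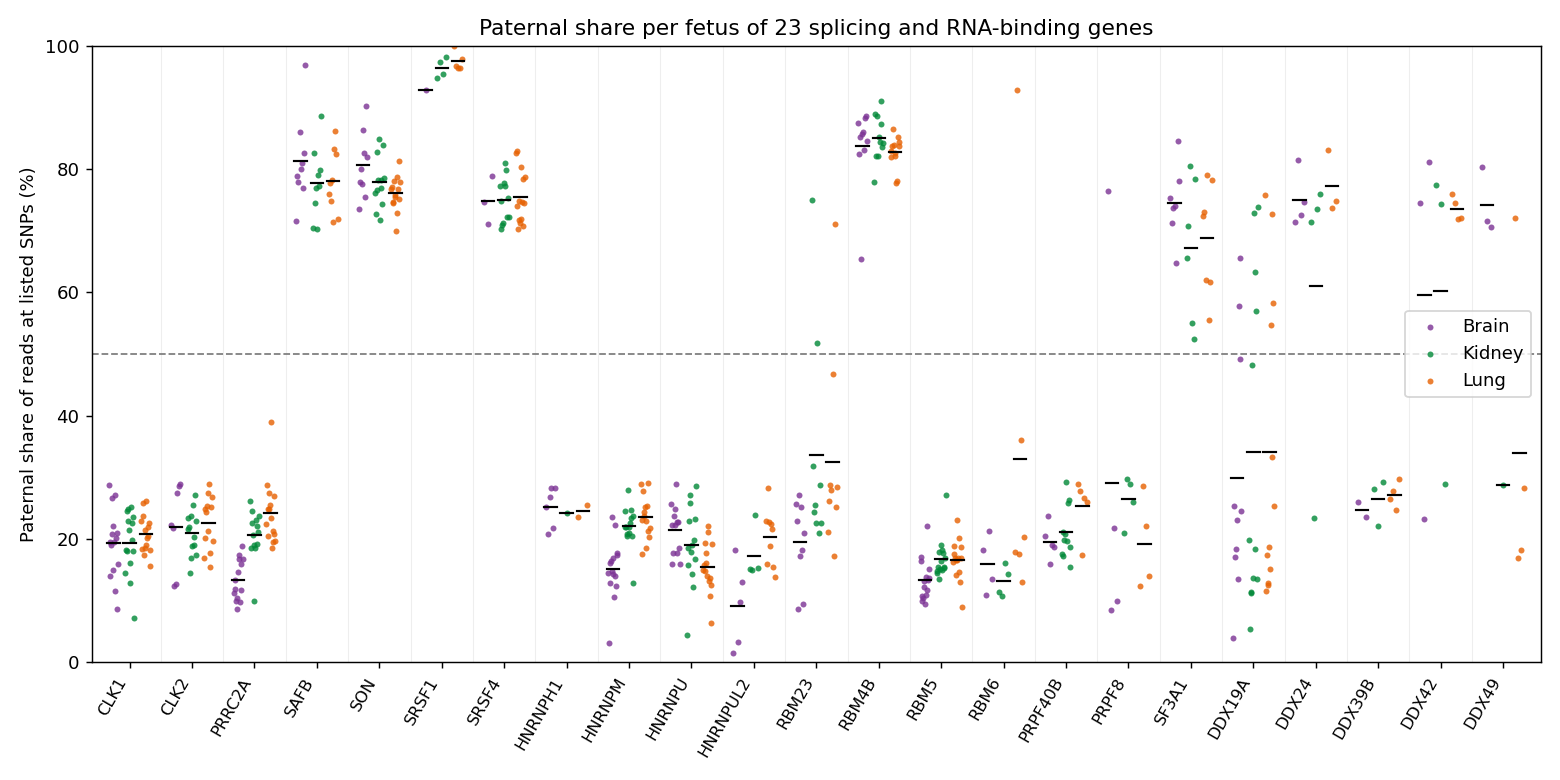
Paternal share of reads (percent, vertical axis) of 23 members, in columns by role, with 1 point per fetus, coloured by tissue, a black bar for the mean and a dashed line where both parents are equal. CLK1, CLK2, PRRC2A, HNRNPM, HNRNPU and RBM5 lie on the maternal side in every library, and SON, SAFB, SRSF1, SRSF4 and RBM4B on the paternal side.

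CLK1 and CLK2 were called maternal in all 3 tissues and CLK4 paternal in brain, the only tissue where it was listed. CLK1, listed in all 45 libraries at 1 SNP (chromosome 2, position 202173743 as the lists give it), had a paternal share of 8.61% to 28.7% in brain, median 19.5%. The range was 7.14% to 25.1% in kidney, median 19.8%, and 15.6% to 26.2% in lung, median 20.6%. All 45 libraries were on the maternal side and the tissues overlapped almost fully. The brain mean was 19.3% ± 5.69 (SD, n = 15, adjusted p = 8.63e-09). Kidney had 19.3% ± 5.12 (n = 15, adjusted p = 6.80e-09) and lung 20.8% ± 3.07 (n = 15, adjusted p = 3.53e-11). CLK2 ranged from 12.4% to 28.8% in 7 brains, from 14.5% to 27.1% in 13 kidneys and from 15.5% to 28.9% in 13 lungs, with medians of 22.2%, 21.6% and 24.4%. It too was maternal in every library listed. All fetuses were heterozygous at the CLK1 SNP and at the SNP behind 33 of the 34 CLK2 entries, and every father had the reference base there. CLK3 was listed in 1 kidney at 18.2% and 1 lung at 15.2%, also maternal, and was not tested. CLK4 had 4 brain values, which were 71.7%, 72.1%, 76.0% and 72.3% in Con5, Con7, Over1 and Over2 (73.0% ± 1.98, n = 4, adjusted p = 0.00267).

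SON, SAFB and PRRC2A, which are grouped here with the CLK kinases, did not share a side. SON, a large SR-related protein that holds nuclear speckles together, had 73.6% to 90.2% paternal reads in 9 brains, 71.8% to 84.9% in 12 kidneys and 70.0% to 81.3% in 14 lungs, with medians of 80.0%, 77.6% and 76.3%. SAFB, a scaffold attachment factor of the nuclear matrix, had 71.6% to 96.9% in 9 brains, 70.2% to 88.6% in 9 kidneys and 71.4% to 86.3% in 9 lungs. Both lay on the paternal side in every library that listed them. Adjusted p was 4.02e-06, 2.62e-08 and 9.62e-11 for SON, and 1.05e-04, 1.29e-05 and 4.37e-06 for SAFB. PRRC2A, a large proline-rich protein that binds methylated RNA in mouse, was maternal in all 42 of its libraries. Its paternal share ran from 8.64% to 18.9% in 14 brains (median 12.6%), from 10% to 26.2% in 13 kidneys (21.1%) and from 18.5% to 39.0% in 15 lungs (23.3%). SON, SAFB and PRRC2A each have entries at SNPs heterozygous in all 15 fetuses, where every father had the reference base. Parent and base cannot be told apart there.

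The 3 SR proteins listed were called paternal where they could be tested, which was SRSF4 in brain, SRSF1 and SRSF4 in kidney and all 3 in lung, while 20.9%, 22% and 21.7% of all genes were called paternal. SRSF1, a founding SR splicing factor, came closest to expression from a single allele. It had 94.7%, 97.4%, 95.5% and 98.1% paternal reads in the kidneys of Con3, Con6, Over2 and Res3. In the lungs of Con3, Con6, Over1, Over2 and Res4 the values were 100%, 96.8%, 96.4%, 96.4% and 97.9%, and a single brain library, Con6, had 92.8%. Balanced SNPs are not in the lists, so a value near equality could not occur, and SRSF1 was listed in 6 of its 12 informative fetuses. Adjusted p was 1.47e-04 in kidney and 1.05e-04 in lung, but both listed SNPs lie 2 bases apart (chromosome 11, 8335142 and 8335144), so the same reads can count at both. SRSF4 was more moderate. It had 74.7%, 71.1% and 78.9% in 3 brains, 70.3% to 81.1% in 12 kidneys and 70.3% to 83.0% in 14 lungs, all from 1 SNP (chromosome 2, 237262561). All 15 fetuses were heterozygous there and every father had the reference base, so parent and base cannot be told apart. SRSF10, in humans a repressor of splicing when dephosphorylated, had 77.8%, 79.1%, 74.2% and 79.2% in 4 lungs (adjusted p = 9.72e-04).

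The hnRNP proteins that could be tested were called maternal, 4 of 4 in brain, 3 of 3 for kidney and 4 of 4 for lung, where 44.6%, 44.0% and 39.2% of all genes were. Others of the family, too sparse to test, had paternal entries: all 4 of HNRNPF (73.0% to 77.8%) and the single one of HNRNPA2B1 (71.1%). HNRNPM, which regulates alternative exons, had a paternal share of 3.13% to 23.5% in 15 brains, 12.9% to 28.0% in 14 kidneys and 17.6% to 29.1% in 14 lungs, with medians of 14.8%, 22% and 23.4%. HNRNPU, which binds nuclear RNA and chromatin, had 15.9% to 29.0% in 13 brains, 4.35% to 28.6% in 14 kidneys and 6.38% to 22.1% in 15 lungs. Both were maternal in every library, with adjusted p between 1.92e-10 and 1.31e-07 for HNRNPU and between 3.80e-10 and 3.38e-09 for HNRNPM. All HNRNPU entries came from 1 SNP, heterozygous in all 15 fetuses, where every father had the reference base. HNRNPM also has entries at such a SNP. HNRNPUL2, its relative, had 1.54%, 18.2%, 3.33%, 9.76% and 13.1% in the brains of Con4, Con5, Con6, Con7 and Over4, the lowest mean among the tested members (9.18% ± 6.88, n = 5, adjusted p = 0.00190). Kidney gave 15.1%, 15.0%, 23.9% and 15.3%, and 9 lungs gave 13.9% to 28.3%.

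HNRNPH1, which binds G-rich RNA, was maternal whichever base the father carried, at different SNPs. At the SNP on chromosome 5 at 1375998 the father had the reference base, and 5 brains had 20.8% to 28.3% paternal reads. All 15 fetuses were heterozygous at that SNP and every father had the reference base, so parent and base cannot be told apart there. At 2 other SNPs the father had the alternative base, and the 9 entries from 3 fetuses had 21.2% to 28.3%. The maternal allele was therefore the reference allele at some SNPs and the alternative allele at others, and no entry of the gene went the other way. The 6 brain values together gave 25.2% ± 3.29 (adjusted p = 1.38e-04). HNRNPK, a poly-C binding protein, was listed in 1 brain, 2 kidneys and 2 lungs, all maternal at 9.68% to 24%, too few to test. HNRNPLL differed between SNPs. At 85377004 on chromosome 3 the kidney of Res3 had 19.3% and 2 lungs 21.9% and 29.8%. Res1 had 76.1% in brain, 72.7% in kidney and 27.7% in lung, each at a different SNP, so its tissues cannot be compared.

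Among the RBM proteins, RBM5 was listed in all 45 libraries and was maternal in each. RBM5 is known in human cells as a regulator of the splicing of apoptosis genes. Its paternal share was 9.52% to 22.1% in brain (median 13.2%), 13.5% to 27.2% in kidney (15.5%) and 9.05% to 23.1% in lung (16.9%), with adjusted p of 2.01e-11, 8.98e-12 and 3.65e-11. A second SNP of the gene, informative in 4 fetuses only, gave 4.44% to 25% in 11 entries, on the same side. RBM6, its neighbour (the nearest listed SNPs are 15.1 kb apart on chromosome 19), was maternal in 4 brains (18.2%, 10.9%, 21.3% and 13.5%) and in 4 kidneys (11.4%, 10.8%, 16.2% and 14.3%). In lung it gave 17.9%, 92.8%, 17.6%, 36.0%, 13% and 20.4% in Con3, Con6, Con7, Over1, Over4 and Res1. The lung values span both sides and were not called (33.0% ± 30.4, n = 6, adjusted p = 0.364). The paternal entries all came from a pair of adjacent positions, 50216518 and 50216519. Without the SNPs informative in 10 or more fetuses, lung was called maternal over 5 fetuses (log ratio -1.55, adjusted p = 2.82e-04).

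RBM4B and its paralogue RBM4, whose nearest listed SNPs lie 22.8 kb apart on chromosome 21, went to different sides. Both regulate alternative splicing. The genes are close copies of each other, and whether their reads were assigned to the right copy was not tested, so both are uncertain. RBM4B had 65.5% to 88.6% paternal reads in 10 brains, 77.9% to 91.1% in 11 kidneys and 77.8% to 86.6% in 12 lungs, with medians of 85.5%, 84.4% and 83.4%. All 33 libraries were paternal, with adjusted p of 7.18e-07, 2.02e-08 and 2.16e-10. RBM4 had 28.6%, 22.3% and 28.8% in the lungs of Con1, Con2 and Con3 (adjusted p = 0.0119), 26.2% and 25.9% in 2 kidneys and 22.9% in 1 brain.

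RBM23, a relative of RBM39, was spread over 27 listed SNPs, 19 of them in Over2 and 12 in Con3. It was maternal in all 9 brains (8.62% to 27.1%, median 20.9%). Kidney ran from 20.9% to 75.0% in 9 fetuses and lung from 17.2% to 71.2% in 9, so that both tissues reached the paternal side. The calls had adjusted p of 2.04e-05 in brain, 0.0257 in kidney and 0.0141 in lung. The kidney call was lost when any 1 of 6 fetuses was left out, with adjusted p up to 0.0586. Both kidney and lung were lost against the median of all genes in place of 0 (adjusted p = 0.605 and 0.240).

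Core spliceosome proteins were called on both sides. SF3A1, a subunit of the U2 snRNP, was paternal in 7 of 7 brains (64.8% to 84.6%), 6 of 6 kidneys (52.5% to 80.5%) and 7 of 7 lungs (55.6% to 79.1%). Its SNPs did not agree, since 7 of 15 libraries with more than one listed SNP had SNPs on opposite sides. On chromosome 17, 68873831 was paternal in 19 of 19 entries, at 70.8% to 89.6%. At 68877231 all 5 entries were maternal, at 13% to 23.4%. The father had the reference base at both. PRPF40B, a U1 snRNP-associated protein, was maternal in 5 brains (20.5%, 23.7%, 15.9%, 19% and 18.8%), in 11 kidneys (15.5% to 29.2%) and in 5 lungs (29.0%, 27.8%, 17.5%, 26.6% and 26%). All PRPF40B entries came from 1 SNP, heterozygous in all 15 fetuses, where every father had the reference base. PRPF8, the central protein of the U5 snRNP, had 21.1%, 29.7%, 28.8% and 26.1% in 4 kidneys and 12.3%, 28.6%, 22.1% and 14% in 4 lungs, both called maternal. Its 4 brain values were 76.5%, 8.45%, 21.7% and 10% and were not called. The paternal one, of Con1, is the single entry at another SNP (chromosome 11, 22342895), while all 11 entries at 22343033 were maternal. SF3B3, another U2 subunit, was maternal in 5 kidneys (24.1% to 29.5%, adjusted p = 3.80e-04).

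PRPF39, a U1-associated protein, showed the sharpest split between SNPs. Con6, Over1 and Over4 had 20.3%, 25.9% and 28.2% in brain at 1 SNP (chromosome 18, 53720465). A different SNP gave 96.6% and 100% in the kidneys of Con4 and Con7 and 100% in the lungs of Con6 and Over1. The brain values were called (adjusted p = 0.0112), and kidney and lung had too few fetuses for a test.

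Brain had 4 DEAD-box helicases tested, with 2 called paternal and 1 maternal. Kidney also had 4 tested, and the 2 called were maternal. Lung had 6 tested, with 2 called paternal and 2 maternal. Among all genes tested in brain, 20.9% were called paternal and 44.6% maternal. These shares were 22% and 44.0% for kidney, then 21.7% and 39.2% for lung. DDX39B, which loads the export machinery onto spliced mRNA, was maternal wherever listed, at 28.1%, 22% and 29.3% in 3 kidneys and 26.5%, 27.8%, 24.7% and 29.8% in 4 lungs (adjusted p = 0.00941 and 0.00185). Its SNPs lie 96.0 kb from those of PRRC2A on chromosome 20. DDX24, a nucleolar helicase, was paternal in 16 of 17 entries, with the reference base from the father in 13 of those and the alternative base in 3. Those 3 came from 1 kidney, at 57486425, 57486426 and 57486435 on chromosome 18, so the same reads can count at each. The DDX24 values were 71.4%, 81.4%, 72.5% and 74.7% in brain and 83.1%, 73.8% and 74.8% in lung, both called. Kidney held 1 maternal fetus (Over2, 23.5%, at a SNP listed in no other fetus) beside 71.4%, 73.5% and 75.9% and was not called. DDX42, which associates with the U2 snRNP, was paternal in 4 lungs (76.0%, 74.4%, 72.0% and 72.1%, adjusted p = 0.00169) and mixed in brain and kidney. DDX49 was paternal in 3 brains (80.4%, 71.6% and 70.7%) and had 72.1%, 16.9%, 18.2% and 28.4% in 4 lungs. The SNP listed in both tissues (chromosome 5, 4029867) was paternal in each of its 3 entries, and the maternal lung values came from 4030128 and 4027075.

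DDX19A, a helicase of mRNA export, had 13 listed SNPs that lay on opposite sides in 9 of 21 libraries with more than one of them. Its shares ran from 4.00% to 65.5% in 10 brains, 5.48% to 73.8% in 12 kidneys and 11.6% to 75.9% in 12 lungs. The medians of 23.8%, 19.1% and 22.1% were maternal, as were 8 fetuses in each tissue. The calls were weak, with adjusted p of 0.0138, 0.0469 and 0.0430, and the kidney and lung calls were lost when any 1 of 7 or of 8 fetuses was left out. At 10 of the 200 listed member SNPs, in 7 genes, some informative fetuses had the reference base from the father and others the alternative base. Listed entries of both kinds occurred at 1 of them, in DDX19A (chromosome 14, 1111077). Con1, Con5, Con7 and Over2, whose fathers had the alternative base, had 4.00%, 8.48%, 20.8% and 13.5% paternal reads in brain, and Res1, whose father had the reference base, had 87.5%. Kidney gave 5.95% to 10.3% in 4 fetuses with the alternative base from the father and 95.6% in Res1, and lung gave 7.69% to 8.07% in 3 fetuses and 98.1% in Res1. The higher allele was the reference base in all 14 entries, but Res1 was the only fetus on one side in all 3 tissues, so this is 1 independent case. Over the other autosomal genes the higher allele followed the base in 221 of 243 cases of a SNP and tissue (90.9%).

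**Figure D2:**
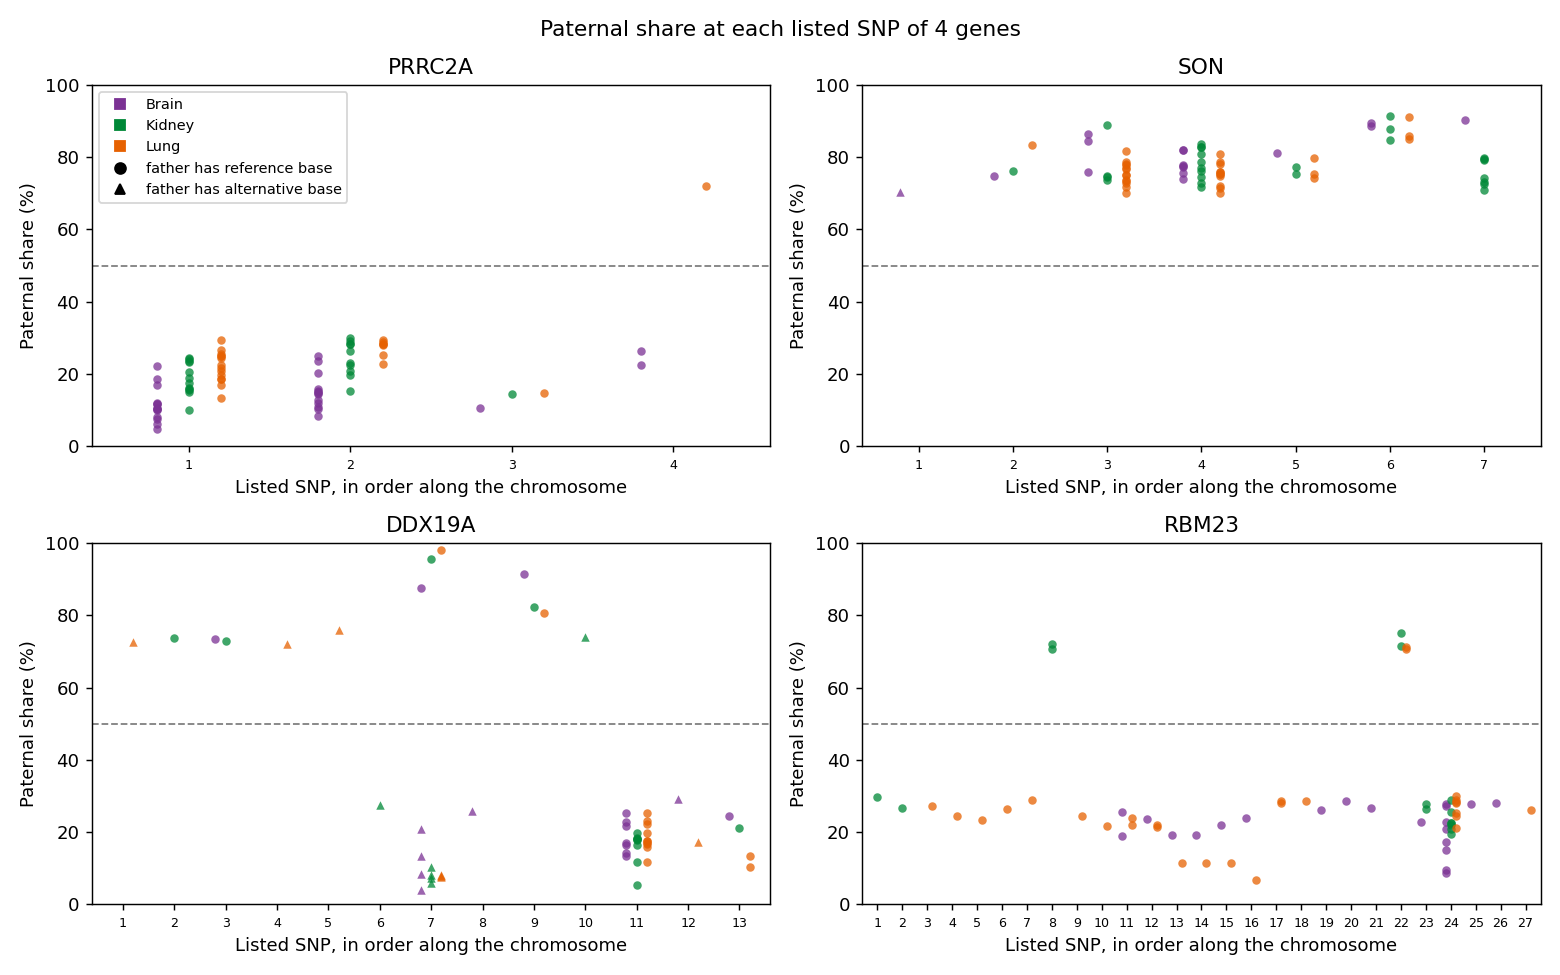
Paternal share (percent) at each listed SNP of PRRC2A, SON, DDX19A and RBM23, with SNPs in order along the chromosome on the horizontal axis, 1 point per library, colour for tissue and shape for the father's base. SON stays on the paternal side at all 7 SNPs, PRRC2A on the maternal side except for 1 entry, and DDX19A and RBM23 have SNPs on both sides.

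The remaining 40 members had values in too few fetuses for a test in any tissue. They held 92 entries, 45 on the paternal and 47 on the maternal side. By gene, 13 were paternal throughout, 14 maternal throughout and 13 had entries on both sides. Among them SNRPB2, a U2 snRNP protein, was maternal in all 3 tissues of Res3, at 15.9% in brain, 6.57% in kidney and 20.5% in lung.

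The side of a SNP was almost always the same in the tissues of a fetus. The same SNP listed in 2 tissues of a fetus lay on the same side in 166 of 166 cases for brain and kidney, in 188 of 190 for brain and lung and in 200 of 200 for kidney and lung. The exceptions were DDX59 in Con7 (24.4% in brain, 71.4% in lung) and DDX54 in Over3 (70.9% in brain, 22% in lung). For the other autosomal genes the shares were 97.7%, 97.5% and 99.1%. Between SNPs of a gene in one library, opposite sides occurred in 23 of 181 cases (12.7%) for the members and in 16.7% for the others. HNRNPM, SAFB, SON and RBM5 had none in 17, 17, 20 and 11 cases. PRRC2A had 1 in 30.

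The father carried the reference base in most member entries, in 94.8% in brain, 93.7% in kidney and 92.4% in lung, compared with 73.7%, 73.1% and 74.1% in the other genes. SNPs informative in 10 or more fetuses held 62.1% to 66.2% of the member entries of a tissue and 29.3% to 30.9% of the others. At 20 of the 200 member SNPs (10%, against 1.69% in the other genes) every one of the 15 fetuses was heterozygous and every ram homozygous. These SNPs lie in 13 members: CLK1, CLK2, HNRNPA2B1, HNRNPH1, HNRNPM, HNRNPU, PRPF40B, PRRC2A, RBM23, RBM5, SAFB, SON and SRSF4. The alternative base was higher in all entries at 12 of them and the reference base at 7. Transitions made up 30.0% of these SNPs (6 of 20), and between 73.3% and 75.4% of the member SNPs that were informative in fewer fetuses. In the other genes they made up 44.9% of the SNPs informative in all 15 fetuses and 69.8% to 77.3% of the rest. The alternative base was higher in all entries at 57.1% of the other genes' SNPs informative in all 15, against 60.0% in the members. Over all informative SNPs, listed or not, 22 of 989 in the members (2.22%) and 393 of 142943 in the other genes (0.275%) were informative in every fetus.

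**Figure D3:**
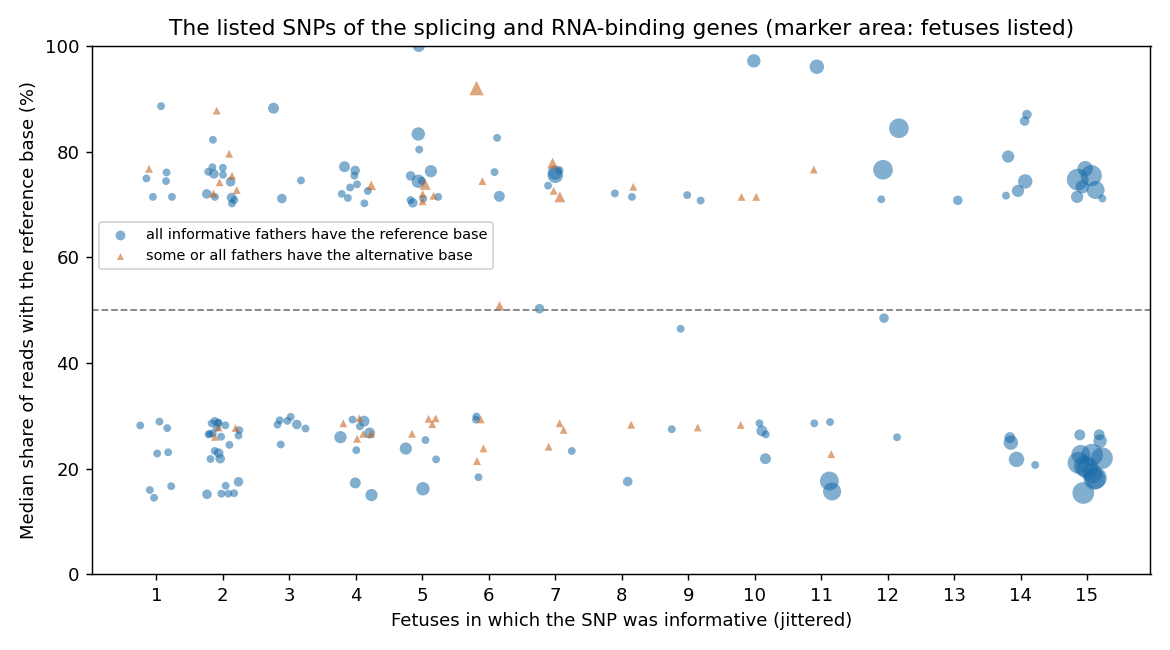
The 200 listed member SNPs, by the number of fetuses in which each was informative (horizontal axis, jittered) and its median share of reads with the reference base (percent, vertical axis). Marker area grows with the number of fetuses listed, and at 15 informative fetuses all markers are circles, where every father had the reference base, and fall into a lower and an upper group.

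The balance of 4 members was called different between tissues, with 3 of them further toward the maternal allele in brain. The difference was tested on the log ratio over all 45 libraries, without the fetus as a block. Only listed SNPs enter, so the means leave out fetuses with more balanced reads. PRRC2A had a mean paternal share of 13.4% ± 3.35 (n = 14) in brain. The kidney mean was 20.7% ± 4.03 (n = 13) and the lung mean 24.2% ± 5.15 (n = 15). Brain was lower than kidney in 12 of 12 fetuses with both, and lower than lung in 14 of 14. The brain range lay mostly within that of kidney (8.64% to 18.9% against 10% to 26.2%) and overlapped that of lung narrowly. The log ratio was lower in brain by -0.519 against kidney (adjusted p = 6.62e-04) and by -0.723 against lung (adjusted p = 2.21e-06). HNRNPM had the same order, with 15.1% ± 4.78 (n = 15) in brain, then 22% ± 3.33 (n = 14) for kidney and 23.6% ± 3.57 (n = 14) for lung. It was lower in brain in 13 of 14 fetuses against kidney (-0.485, adjusted p = 0.00228) and in 14 of 14 against lung (-0.565, adjusted p = 3.63e-04).

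HNRNPUL2 was also lower in brain than in lung (9.18% ± 6.88, n = 5, against 20.2% ± 4.62, n = 9), in 4 of 5 fetuses with both, by -0.996 (adjusted p = 0.0206). That call was lost with the fetus as a block (adjusted p = 0.0606), over SNPs listed in both tissues (0.0775), and without Con4 (0.107) or Con6 (0.103). HNRNPU went the other way, at 21.5% ± 4.00 (n = 13) in brain and 15.4% ± 4.10 (n = 15) in lung, higher in brain in 11 of 13 fetuses by 0.426 (adjusted p = 0.0309). Leaving out Con7, Over3, Res1 or Res3 took its adjusted p to between 0.0517 and 0.0575. In number, 2 of 19 members differed between brain and kidney, where 11.6% of all genes did. Both were lower in brain (9.68% of all genes), and none was higher (1.94%). Between brain and lung 4 of 20 differed, where 15.0% of all genes did, 3 lower in brain (11.9% of all genes) and 1 higher (3.12%). None of 21 differed between kidney and lung with limma, where 0.407% of all genes did, and none had an unadjusted p under 0.05. Without the SNPs informative in 10 or more fetuses, no member was called in any pair of tissues. Tested then were 7 members for brain against kidney, 8 for brain against lung and 8 for kidney against lung. PRRC2A, HNRNPM, HNRNPU and HNRNPUL2 were no longer tested in the pairs where they had been called.

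**Figure D4:**
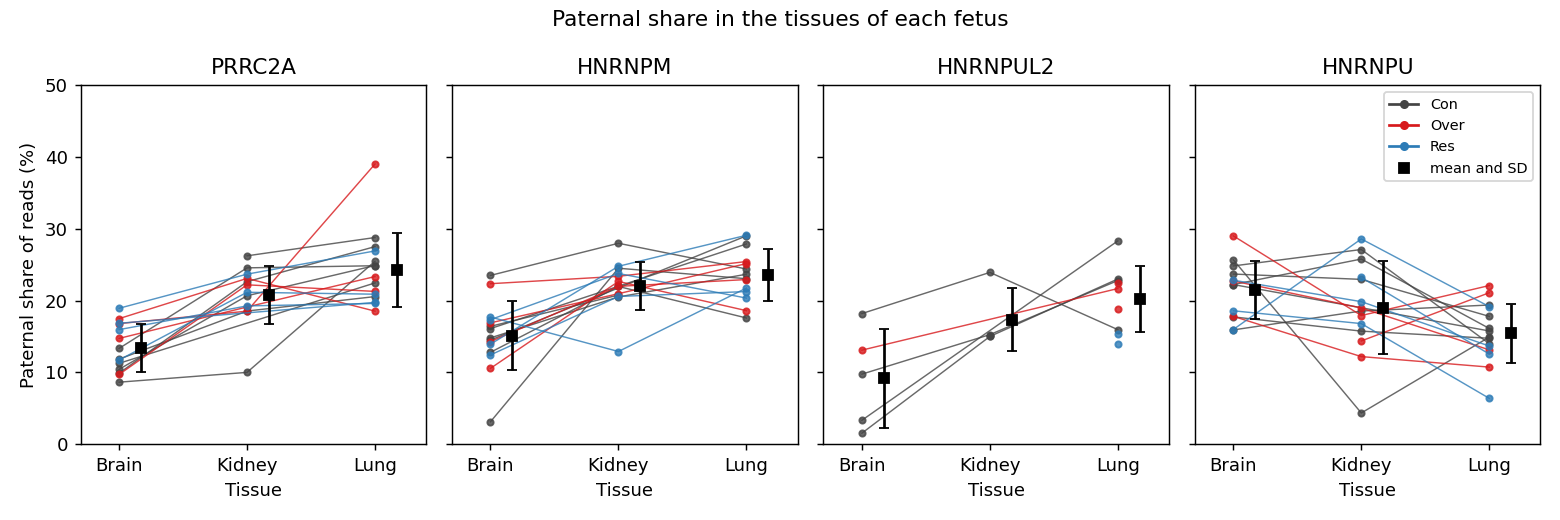
Paternal share (percent) of PRRC2A, HNRNPM, HNRNPUL2 and HNRNPU in brain, kidney and lung, with a line per fetus coloured by diet and black squares with bars for the mean and SD. The mean of PRRC2A is 13.4% in brain and 24.2% in lung and that of HNRNPM 15.1% and 23.6%, while HNRNPU has 21.5% in brain and 15.4% in lung.

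How strongly a gene was expressed can be seen here only through the reads at its listed SNPs, which are given first unscaled. In bulk tissue, fewer cells of a type and less RNA per cell cannot be told apart. CLK1 had 55 to 208 reads in brain (median 101.5), 70.0 to 297 in kidney (225.5) and 195 to 719 in lung (340.0). RBM5 had medians of 61, 123.5 and 196.2 reads per SNP, SRSF4 of 57.0, 129.8 and 158.2, and HNRNPM of 69, 113.0 and 117.8. For each of these genes brain was the lowest tissue. The lungs of Over1 held the highest value of all 4, and that library also held the most reads in all (194732.5).

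After scaling of the libraries, 7 of 19 members differed in coverage between brain and kidney, where 33.3% of all genes did, and all 7 were lower in brain, a direction called in 13.5% of all genes. They were CLK1 (log2 difference -0.76, adjusted p = 2.66e-09), CLK2 (-0.75), HNRNPM (-0.59), PRPF40B (-0.87), RBM4B (-0.48), RBM5 (-0.60) and SRSF4 (-0.47). CLK1 was lower in brain in 15 of 15 fetuses and HNRNPM in 14 of 14. The SRSF4 call was lost with the fetus as a block (adjusted p = 0.0767). Against lung, 8 of 20 were called, where 41.2% of all genes were, again all lower in brain, a direction called in 15.0% of all genes. CLK1 (-1.03, adjusted p = 1.07e-13) and RBM5 (-1.04, adjusted p = 3.12e-12) were lower in brain in 15 of 15 fetuses, with ranges that did not overlap. SRSF4 (-0.69), CLK2 (-0.66), DDX42 (-0.78), HNRNPM (-0.44), HNRNPU (-0.26) and RBM4B (-0.36) were smaller or rested on fewer fetuses. DDX42 was lost without Con3 (adjusted p = 0.0738) or Con4 (0.0559), HNRNPU without Over1 (0.0580), and RBM4B without Con6 (0.0519) or Res2 (0.0524).

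Between kidney and lung, 3 of 21 members differed, where 20.3% of all genes did, with 10.2% called lower and 10.2% higher in kidney. CLK1 (-0.27, adjusted p = 0.0206) and RBM5 (-0.44, adjusted p = 7.59e-04) were lower in kidney, and PRPF40B (0.62, adjusted p = 9.59e-05) was higher. With the fetus as a block 5 were called, 4 of them lower in kidney. The CLK1 call was lost without Res4 (adjusted p = 0.0660) and with at least 30 reads per SNP (0.0542). The PRPF40B call was lost without scaling (0.14, adjusted p = 0.719), which moved the median of all genes from 0.05 to -0.28. The median difference of all genes tested was 0.07 log2 for brain against kidney and 0.16 for brain against lung, and that of the members -0.26 and -0.22. Without scaling the medians of all genes were -0.09 and -0.29 and those of the members -0.48 and -0.81. All calls of members were still lower in brain then, 4 against kidney, where CLK2, RBM4B and SRSF4 were lost, and 10 against lung, where DDX42 was lost. With at least 30 reads per SNP, HNRNPU and RBM4B were lost against lung (adjusted p = 0.0867 and 0.521). PRRC2A and DDX19A were not called in any pair of tissues. With the SNPs informative in 10 or more fetuses left out, 1 of 7 members was called for brain against kidney, 1 of 8 for brain against lung and 0 of 8 for kidney against lung, where 25.5%, 49.1% and 20.6% of all genes were. RBM5 was still tested between kidney and lung, and its difference went from -0.44 to -0.12 (adjusted p = 0.733).

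**Figure D5:**
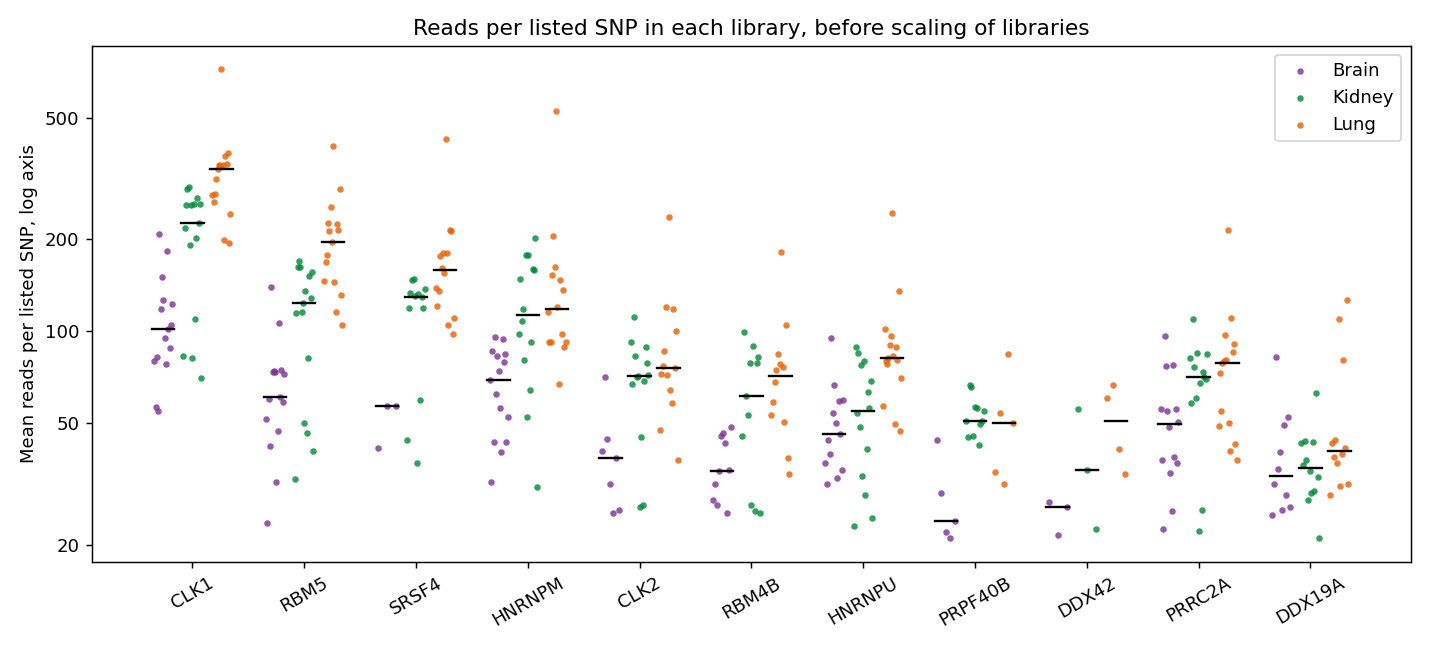
Mean reads per listed SNP (log axis) of 11 members in each library, before scaling, coloured by tissue, with a black bar for the median. The brain points of CLK1 (median 101.5) and RBM5 (61) lie mostly below those of kidney and lung, while PRRC2A and DDX19A overlap between tissues.

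The diet of the ewe was compared within each tissue over the 12 ewes. CLK1 in kidney had a paternal share of 14.5% to 24.9% in 7 Con fetuses (median 21.4%), 12.8% to 25.1% in 4 Over and 7.14% to 23.5% in 4 Res. RBM5 in lung had 14.2% to 18.9% in Con, 14.7% to 23.1% in Over and 9.05% to 18.6% in Res. The diets overlapped in both. No member was called in 129 tests of the share with limma, over 22 members and 9 contrasts, where 0.0391% of the tests of all genes were called (0.258% for Res against Con in lung and none in the other contrasts). There were 2 member tests with an unadjusted p under 0.05. The smallest p belonged to DDX19A in kidney. Its Con values were 19.8%, 5.48%, 11.4% and 11.2%, and its Res values 63.3%, 57.0%, 13.5% and 73.8%. The fetuses differed in SNP and paternal base, and 73.8% is the only entry at position 1110556. At 1111077, Con5, Con7 and Res3 had the alternative base from the father (5.95%, 10.3% and 7.27%). Res1 had the reference base there (95.6%), so diet cannot be told apart from SNP and base. Res3 lay among the Con values, and the difference of 2.00 in log ratio (95% interval 0.261 to 3.74) had an adjusted p of 0.900. The 95% interval of CLK1 for Res against Con in lung was -0.446 to 0.234 and that of RBM5 -0.653 to 0.187.

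Coverage likewise gave no call of a member in 129 tests, and none of any gene (0.0% of 2556 tests), with 4 member tests at an unadjusted p under 0.05. SON in lung had the smallest p. It had 69.8 to 142.5 reads per SNP in 7 Con fetuses (median 94.7), 108.5, 77.5, 23.5 and 42.3 in Over1, Over2, Over3 and Over4, and 92.5, 45.5 and 37.5 in Res1, Res2 and Res4. The groups overlapped. After scaling, Over was lower than Con by -1.07 log2 (95% interval -1.81 to -0.32, adjusted p = 0.849) and Res by -0.81 (adjusted p = 0.982). Only 22 of the 71 members had values in enough ewes for a diet test, and a p that misses the threshold does not show that the diets acted alike.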

How the data were processed

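Allele-specific RNA sequencing covered brain, kidney and lung of 15 fetuses. The authors deposited estimated counts of maternal and paternal reads per SNP, averaged over alignments to a reference and an alternative genome per the series' design text, and 65.3% of the entries are not whole numbers. Trimmomatic 0.33, HISAT2 2.0.5, Picard and SAMtools stand in the submitters' processing notes. The variant caller and the genome build are not given in the sources used here, and positions are those of the deposited lists. Whether a SNP is exonic or in a UTR was not analysed here.

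Reads of the listed SNPs were summed per gene and library. Parental bias was tested with limma 3.58.1 (R 4.3.3, package data.table at 1.17.8) on ln((paternal + 0.5)/(maternal + 0.5)) against 0, per tissue, for each gene that had values from 3 or more fetuses. Tissue contrasts used 1 fit over 45 libraries, also for coverage, log2(mean reads per listed SNP + 1), which was scaled per library by the median over 153 genes listed in at least 23 libraries (shifts of -1.30 to 1.43 log2). Diet contrasts used fetuses averaged by ewe tag, in genes with at least 2 ewes per diet. All fits ran over every gene, were two-sided and adjusted by Benjamini-Hochberg, with calls at 0.05, and the scripts were tested on simulated data. The same fetus gave all 3 tissues per the labels, so the fetus number pairs tissues. Deviations of the share correlated over 0.1 in 42 of 45 tissue pairs (r from -0.060 to 0.616). Intervals on read counts cover counting error only, and fetuses of a ram or ewe are not independent.

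Members, gene lists and tests were chosen with earlier results of these data known. Genes named were those called in at least 2 tissues or in 1 with 6 or more fetuses, seen with either paternal base, near a single allele, called in a contrast or with the smallest p of a family without calls, or listed at 6 or more SNPs. CLK3, CLK4, DDX54, DDX59, HNRNPA2B1, HNRNPK, HNRNPLL, PRPF39, RBM4, SF3B3, SNRPB2 and SRSF10 were added after their values were seen.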

Additional observations from a re-analysis of the deposited data

Results flagged for a closer look

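In 7 of 72 groups of 4 to 7 fetuses (a member in 1 tissue and diet) the highest or lowest paternal share stood far from the rest. For independent, normally distributed values about 1 in 20 such groups would. The shares here are limited by the list filter and some Con fetuses share an ewe tag, so that rate may not hold. DDX19A in Con lung had 75.86% in Con1 and 11.6% to 17.4% in the other 4, and the Con1 value came from a SNP listed in no other fetus (chromosome 14, 1110891). RBM23 in Con kidney had 75.0% in Con2, the others 22.5% to 31.8%. RBM4B in Con brain had 65.47% in Con6, where the others had 82.5% to 87.5%, and Con6 was a fetus with a second listed SNP at 23.8% (chromosome 21, 43887953). The remaining 4 stayed on the side of their group. HNRNPM had 29.08% in the lung of Res1 (others 20.3% to 21.7%), HNRNPUL2 had 23.91% in the kidney of Con5 (15.0% to 15.2%), PRPF40B had 29.2% in the kidney of Con7 (17.3% to 21.1%) and RBM5 had 27.16% in the kidney of Res4 (15.2% to 17%).

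Tissues of the same design differed in log ratio, by the test of the difference, in 6 cases. PRRC2A was lower in brain by -0.5191 against kidney and by -0.7226 against lung, HNRNPM by -0.4851 and -0.5652, and HNRNPUL2 by -0.9965 against lung, whereas HNRNPU was higher in brain than in lung by 0.4264.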

How the results depend on the processing

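Without the SNPs informative in 10 or more fetuses, calls of parental bias fell to 7 in brain, 6 in kidney and 7 in lung. Tissue differences of the share then fell to 0 for brain against kidney and 0 for brain against lung, and those of coverage to 1, 1 and 0. All tissue calls lost there were of members no longer tested, except RBM5 for kidney against lung, whose coverage difference went from -0.44 to -0.12. Of the bias calls lost, those of DDX19A were lost while still tested, at -0.555, -0.591 and -0.621 in log ratio. The exact sign-flip permutation test, possible only with 6 or more fetuses, called 13 of 13, 12 of 14 and 13 of 15. Coverage between brain and kidney gave 4 calls without scaling, brain against lung 5 with a minimum of 30 reads, and kidney against lung 5 with the fetus as a replicate block. That block left 2, 3 and 0 calls for the share and otherwise 6 and 7 for coverage. The only SNP with listed entries of either base from the father followed the base in 1 tissue at 30 reads and could be judged in 0 with at least 2 fetuses per base.

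Leaving out each fetus in turn gave 20 to 22 calls of bias in brain, 17 to 20 in kidney and 20 to 24 in lung, 2 to 3, 3 to 5 and 0 for the tissue differences of the share, 6 to 8, 6 to 8 and 2 to 4 for coverage, and 0 for diet. DDX19A was lost in all 3 tissues against the median of all genes, with adjusted p of 0.260, 0.464 and 0.341. No call named in the text changed its direction, but without scaling the members' median coverage difference between kidney and lung went from 0.05 to -0.41, and the medians of all genes turned negative in all 3 pairs of tissues. For diet the replicate number served as a block and left 0 calls. Numbers did not pair animals across diets: 8 of 36 correlations were over 0.1, and 10 of 36 ewes correlated best with their own number. Depth limits the lists to SNPs with at least 20.5 reads, so members with few reads were listed in few fetuses.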

Other observations

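A second list of 105 other splicing and RNA-processing genes had informative SNPs in 91 and listed SNPs in 45. In brain 7 of 7 tested were called, 3 paternal and 4 maternal, in kidney 1 of 3 (maternal), and in lung 8 of 8, 4 on either side, where 65.5%, 66% and 60.9% of all genes were called. FUBP1, which binds single-stranded DNA and RNA, was listed in the most fetuses. Its mean paternal share was 7.68% ± 6.48 (n = 3) in brain, with 23.1% ± 3.46 (n = 6) for kidney and 24.2% ± 7.87 (n = 12) for lung, all called maternal (adjusted p = 0.00680, 7.56e-05 and 1.32e-06 with limma). The father had the reference base in all 22 of its entries.

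CELF1, a CUG-binding splicing regulator, was paternal at 86.9% ± 3.47 (n = 3) in brain and 77.7% ± 5.27 (n = 5) in lung. AQR, a helicase of the intron-binding complex, was paternal at 78.9% ± 4.65 (n = 4) in brain and 74.3% ± 2.28 (n = 3) in lung over 13 listed SNPs. Its 3 kidneys ranged from 21.6% to 77.1% and were not called (adjusted p = 0.658). U2SURP, a U2 snRNP-associated protein, had 24.4% to 46.1% in 4 kidneys, not called (adjusted p = 0.0718), and 55.5% to 76.5% in 4 lungs, called paternal (adjusted p = 0.0236). The difference between its kidney and lung values was not tested here.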
